A study of Homo sapiens with 4 samples.

Results

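A set of 9 enzymes and transporters of amino acid metabolism and antioxidant defence was followed in LN229, an established human glioblastoma cell line, by reverse phase protein array (RPPA), a method that spots lysates on slides and stains every slide with 1 antibody. Their antibodies were taken from the panel by protein name, and the 9 described here are 9 of the 440 antibodies on it. Of the 9, 3 concern amino acid metabolism (ASNS, Glutamate-D1-2 and SLC1A5) and 6 concern antioxidant defence (NQO1, GCLC, GCLM, SOD1, SOD2 and TIGAR). The 2 untreated samples were LN229 cells at 0 min. The 2 other samples were LN229 cells treated for 60 min with salmon calcitonin (sCT), a ligand of the calcitonin receptor, at 300 nM, the dose that the study's description gives. The labels name no untreated sample at 60 min, so sCT cannot be told apart from the time between the samples or from handling. No allele or other agent was named for either group, although the study also refers to its control cells as PBS-treated. All samples came from 1 cell line, and the labels do not say that replicates were separate cultures, although the series description calls the treatments biological duplicates. The p-values therefore measure the spread between these samples only, which may be technical.

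The values were linear relative levels without a unit. The panel median was 1 in each sample, so a change is relative to the panel of that sample. Levels of different antibodies share no scale, so a level compares samples for 1 antibody and not antibodies with each other. For the same reason the cell type could not be checked against marker levels. A level is also an average over the cells of a lysate, in which fewer cells holding a protein and less of it per cell cannot be told apart. How far a signal stood above background is unknown, because only these relative levels were analysed. Across antibodies, the log2 levels of the replicates correlated with Pearson's r = 0.790 in untreated cells and 0.975 after sCT, and antibodies are not independent replicates. Fold changes are differences of mean log2 levels, sCT-treated minus untreated, with adjusted p-values from limma over all 440 antibodies, and "rose" is used where the adjusted p was below 0.05. An exact permutation test on 1 antibody has a smallest possible two-sided p of 0.333 in this design of 2 against 2.

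As background, glutamine enters cells through transporters such as SLC1A5, it is turned into glutamate, and glutamate dehydrogenase passes the carbon of glutamate to the citric acid cycle. ASNS spends glutamine nitrogen to make asparagine, and glutamate is also a building block of glutathione, whose first step is run by the GCLC and GCLM subunits. NQO1, GCLC and GCLM are classical targets of the transcription factor NRF2 through antioxidant response elements, while ASNS is a classical target of ATF4, which binds C/EBP-ATF elements when amino acids are short. Glioma cells are known for heavy use of glutamine.

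The regions upstream of ASNS, NQO1 and GCLM are shown because these 3 genes are textbook examples of those 2 kinds of element. The sequences are those of RefSeq (GRCh38.p14), cover the 250 bases before an annotated gene start, and are written 5′ to 3′ on the gene's own strand. Capitals mark a match, on either strand, to TGATGNAA, a C/EBP-ATF letter pattern, or to TGACNNNGC, the core of the antioxidant response element. The ASNS window lay at chr7:97872409-97872658 (minus strand), that of NQO1 at chr16:69726561-69726810 (minus strand) and that of GCLM at chr1:93909431-93909680 (minus strand).
ASNS: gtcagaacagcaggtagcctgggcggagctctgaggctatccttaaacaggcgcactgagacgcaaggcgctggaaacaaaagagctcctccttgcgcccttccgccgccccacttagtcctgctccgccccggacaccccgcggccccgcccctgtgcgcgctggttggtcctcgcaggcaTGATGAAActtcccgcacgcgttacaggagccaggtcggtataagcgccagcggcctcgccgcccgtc
NQO1: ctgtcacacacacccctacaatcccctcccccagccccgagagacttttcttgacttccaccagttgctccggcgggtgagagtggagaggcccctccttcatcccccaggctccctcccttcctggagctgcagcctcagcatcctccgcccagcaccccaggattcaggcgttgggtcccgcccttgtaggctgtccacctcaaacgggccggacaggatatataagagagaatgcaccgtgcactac
GCLM: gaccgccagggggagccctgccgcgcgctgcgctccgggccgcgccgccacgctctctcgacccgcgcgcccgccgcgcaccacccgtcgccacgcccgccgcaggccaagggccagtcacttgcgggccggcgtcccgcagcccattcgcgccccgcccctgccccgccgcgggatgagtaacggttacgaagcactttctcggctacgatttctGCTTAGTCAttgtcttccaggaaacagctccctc
The ASNS window shown held TGATGNAA at positions -68 to -61, counted back from the base just before the start as -1. The GCLM window held TGACNNNGC on the opposite strand at positions -34 to -26, and the NQO1 window held neither pattern. Another ASNS window, at chr7:97872166-97872415, and the GCLC window, neither of them printed, also held neither pattern. Bases further upstream were not searched, so elements outside the window would be missed. Of 34943 such windows of all genes, 3.15% held TGATGNAA and 10.9% held TGACNNNGC. The 9 antibodies stand for 10 genes, since Glutamate-D1-2 names both glutamate dehydrogenases, and 9 of these genes had a window. The only other matches among their 15 windows were at later starts of SLC1A5, 1 for each pattern. A match is a run of letters and not a measured site, and no binding or transcript was measured.

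Levels of all 9 proteins were higher after sCT, with both treated samples above both untreated samples for every one of them, and 7 of the 9 rose in limma. Over the panel, 43.0% of antibodies had both treated samples above both untreated ones, and 21.4% were called higher. None of the 9 was called lower, against 33.6% of the panel. The proteins were chosen with earlier results of these data known, so these shares are a description and not a test. The 9 log2 fold changes ran from 0.07 for SLC1A5 to 0.73 for NQO1, with a median of 0.36, beside a median of 0.02 over all antibodies. ASNS, NQO1 and GCLC also passed an unadjusted limma p of 0.05 together with a log2 fold change of at least 0.58. In that direction, 2.50% of the panel passed both. The study's heatmap of Hippo pathway genes used the same cutoffs, but its caption does not name the test behind its p.

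**Figure D1:**
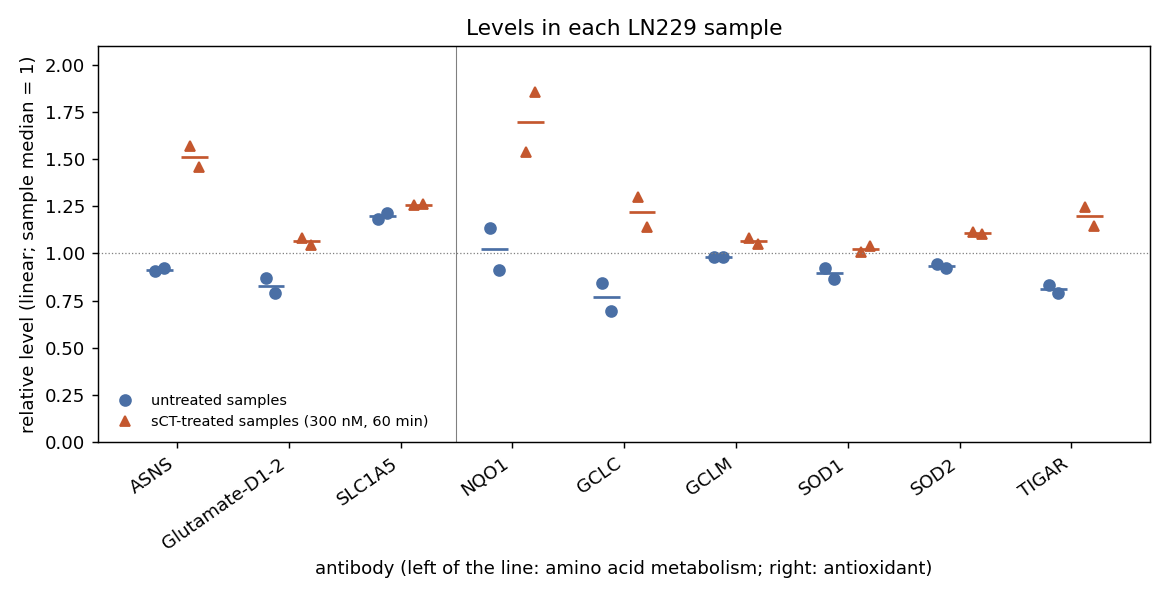
Relative level (linear, sample median of 1) of each of the 9 proteins in every sample, with untreated samples as circles, sCT-treated samples as triangles and a line at each group mean (n = 2). Both triangles lie above both circles for all 9, with the widest gaps for ASNS and NQO1 and the narrowest for SLC1A5.

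Among the amino acid proteins, ASNS, the enzyme that makes asparagine, changed the most. Its level was 0.905 and 0.922 in the untreated samples and 1.57 and 1.46 in the treated ones. The 2 groups were far apart relative to their replicates, with means of 0.914 ± 0.0120 (SD, n = 2) and 1.51 ± 0.0775 (SD, n = 2). ASNS rose by 0.73 on the log2 scale (SE 0.05, 95% interval 0.58 to 0.87, adjusted p = 0.000603), a 1.66-fold change, and held the sixth place from the top of the panel. It remained called with each sample left out in turn, at 0.68 to 0.78 (adjusted p between 0.00559 and 0.00891).

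Glutamate-D1-2, glutamate dehydrogenase, moved less. It went from 0.868 and 0.790 to 1.08 and 1.04. The groups were separate, and its rise was 0.36 on the log2 scale (SE 0.06, 95% interval 0.19 to 0.53, adjusted p = 0.00878). Its call needed both treated samples (adjusted p = 0.0689 when sCT replicate 1 was left out and 0.0503 when sCT replicate 2 was), and quantile normalization, which gives all samples 1 distribution, moved the value to 0.65 (adjusted p = 0.00600).

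SLC1A5, the glutamine transporter of the plasma membrane, showed the smallest difference of the 9. Its levels were 1.19 and 1.21 in untreated cells and 1.25 and 1.26 after sCT, so that the groups were separate but close. The log2 fold change was 0.07 (95% interval -0.04 to 0.18, adjusted p = 0.212), and quantile normalization moved it to 0.19 (adjusted p = 0.0377). The transporter and glutamate dehydrogenase thus gave log2 fold changes of 0.07 and 0.36 side by side, and the difference between these was not tested.

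On the antioxidant side, NQO1, a cytosolic quinone reductase, changed about as much as ASNS. It stood at 1.13 and 0.913 in untreated cells and at 1.54 and 1.86 after sCT. The groups did not overlap, but the replicates of each were further apart than for ASNS, with means of 1.02 ± 0.157 (SD, n = 2) and 1.70 ± 0.226 (SD, n = 2). NQO1 rose by 0.73 on the log2 scale (SE 0.14, 95% interval 0.35 to 1.11, adjusted p = 0.0121), the fifth place from the top, and the interval was wider than that of ASNS. Leaving out untreated replicate 2 gave 0.57 (adjusted p = 0.0542), and leaving out sCT replicate 2 gave 0.59 with an adjusted p of 0.0708, so that the call was lost without either sample.

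GCLC and GCLM, the catalytic and the modifier subunit of the enzyme that starts glutathione synthesis, had unlike values. GCLC was at 0.846 and 0.697 in untreated cells and at 1.30 and 1.14 after sCT. It rose by 0.67 on the log2 scale (SE 0.12, 95% interval 0.35 to 0.98, adjusted p = 0.00881), a 1.59-fold change. GCLM was at 0.981 and 0.983 in untreated cells and at 1.08 and 1.05 after sCT, a log2 fold change of 0.12 (95% interval 0.0030 to 0.24, adjusted p = 0.0756), which did not pass the threshold. The call of GCLC was lost without sCT replicate 1 (adjusted p = 0.0647), and under quantile normalization its log2 fold change was 1.24 (adjusted p = 0.0177).

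The subunits were compared within each sample, a comparison chosen after their values were seen. The log2 level of GCLC minus that of GCLM was -0.21 and -0.50 in the untreated samples and 0.26 and 0.12 in the treated ones. Both treated samples were higher, by 0.55 on average, but the exact permutation test could give no two-sided p below 0.333, which is the value found (0.667 after Benjamini-Hochberg adjustment over the 2 pairs compared). For SOD2 minus SOD1 the difference between groups was 0.05 (two-sided exact permutation p = 0.667, adjusted 0.667). Since levels of different antibodies share no scale, only the change of such a difference between samples can be read.

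The superoxide dismutases, which turn superoxide into hydrogen peroxide, changed little. SOD1, the cytosolic form, had levels of 0.925 and 0.865 in untreated cells and 1.01 and 1.04 after sCT. It rose by 0.19 on the log2 scale (SE 0.06, 95% interval 0.05 to 0.34, adjusted p = 0.0381), and this call held without untreated replicate 1 (adjusted p = 0.0420) but was lost with any other sample left out (adjusted p up to 0.176). SOD2, the mitochondrial form, went from 0.946 and 0.923 to 1.11 and 1.10. Its replicates were close in both groups, and it rose by 0.25 on the log2 scale (SE 0.04, 95% interval 0.13 to 0.36, adjusted p = 0.00878), a call that needed both treated samples (adjusted p = 0.0637 when sCT replicate 1 was left out and 0.0550 when sCT replicate 2 was).

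TIGAR, a phosphatase that slows glycolysis and favours the pentose phosphate pathway, a source of NADPH for glutathione recycling, had levels of 0.835 and 0.790 in untreated cells and 1.25 and 1.14 after sCT. Its groups were well separated. TIGAR rose by 0.56 on the log2 scale (SE 0.06, 95% interval 0.39 to 0.73, adjusted p = 0.00231), a 1.47-fold change. The call was kept with each sample left out in turn (adjusted p between 0.0122 and 0.0218), and quantile normalization gave 0.99 (adjusted p = 0.00401).

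**Figure D2:**
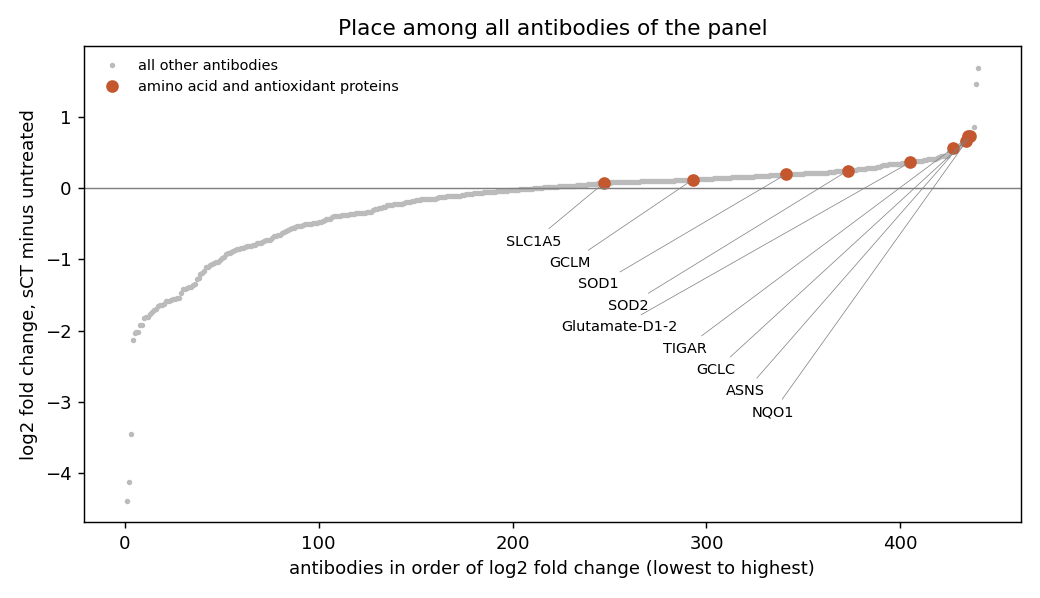
Log2 fold change (sCT-treated minus untreated) of all 440 antibodies in ascending order, with the 9 proteins marked. All 9 lie above 0, and NQO1, ASNS, GCLC and TIGAR sit close to the upper end. GCLM and SLC1A5 are the lowest of the 9, at places 148 and 194 from the top.

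In the order of change, NQO1 (0.73), ASNS (0.73), GCLC (0.67) and TIGAR (0.56) came first, and their 95% intervals overlapped one another. Glutamate-D1-2, SOD2 and SOD1 followed between 0.36 and 0.19, again with overlapping intervals, and GCLM and SLC1A5 closed the order. The interval of ASNS (0.58 to 0.87) lay above those of Glutamate-D1-2 (0.19 to 0.53) and of all proteins after it. The interval of TIGAR (0.39 to 0.73) overlapped that of Glutamate-D1-2.

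Proteins tied to the regulation of ASNS and of the NRF2 targets were read from lists written from general knowledge, with earlier results of these data known. ATF4, eIF2α, KEAP1 and p62 were not analysed here. NRF2 itself was at 1.02 and 1.07 in untreated cells and at 1.10 and 1.11 after sCT, a log2 fold change of 0.08 (95% interval -0.05 to 0.21, adjusted p = 0.200). The groups were separate by a small margin. DJ1, a redox-sensitive protein linked to NRF2 stability, went from 0.904 and 0.852 to 1.09 and 1.004, a change of 0.25 (adjusted p = 0.0255) that was lost with any 1 sample left out (adjusted p between 0.0512 and 0.127).

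Of 3 proteins of the endoplasmic reticulum stress response, 2 rose, beside 21.4% of the panel called higher. BiP-GRP78, the main chaperone of the endoplasmic reticulum, went from 0.850 and 0.871 to 1.09 and 1.08 (log2 fold change 0.33, adjusted p = 0.00332). XBP-1, a transcription factor of the unfolded protein response, went from 1.05 and 1.01 to 1.22 and 1.16 (log2 fold change 0.20, adjusted p = 0.0266), and its call was lost with any 1 sample left out (adjusted p between 0.0616 and 0.135). PERK, the stress kinase upstream of ATF4, was at 1.03 and 0.960 in untreated cells and at 0.955 and 1.02 after sCT. Its groups overlapped, with a log2 fold change of -0.01 (95% interval -0.17 to 0.15, adjusted p = 0.889).

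PHGDH, the first enzyme of serine synthesis, went from 0.890 and 0.855 to 1.19 and 1.18 and rose by 0.45 on the log2 scale (SE 0.05, adjusted p = 0.00160). IDO, which breaks down tryptophan, gave 0.14 (adjusted p = 0.0746). Of 6 antibodies to enzymes of pyruvate, succinate and citrate metabolism, none rose in limma. The first 5 (SDHA, a complex II subunit, PDH, PDHA1 and PDHK1) had log2 fold changes of 0.10 to 0.18, each with both treated samples above both untreated ones, as 43.0% of the panel had, and with an adjusted p of 0.0562 to 0.174. The sixth, ACLY phosphorylated at S455, a site on the enzyme that makes cytosolic acetyl-CoA from citrate, fell from 0.975 and 0.923 to 0.616 and 0.669 (log2 fold change -0.56, adjusted p = 0.00203). Total ACLY was not analysed here, so less phosphorylation and less enzyme cannot be told apart. In all, 4 of these 13 related antibodies rose and 1 fell, where 21.4% of the panel was called higher and 33.6% lower, and their median log2 fold change was 0.14, beside 0.02 over all antibodies.

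**Figure D3:**
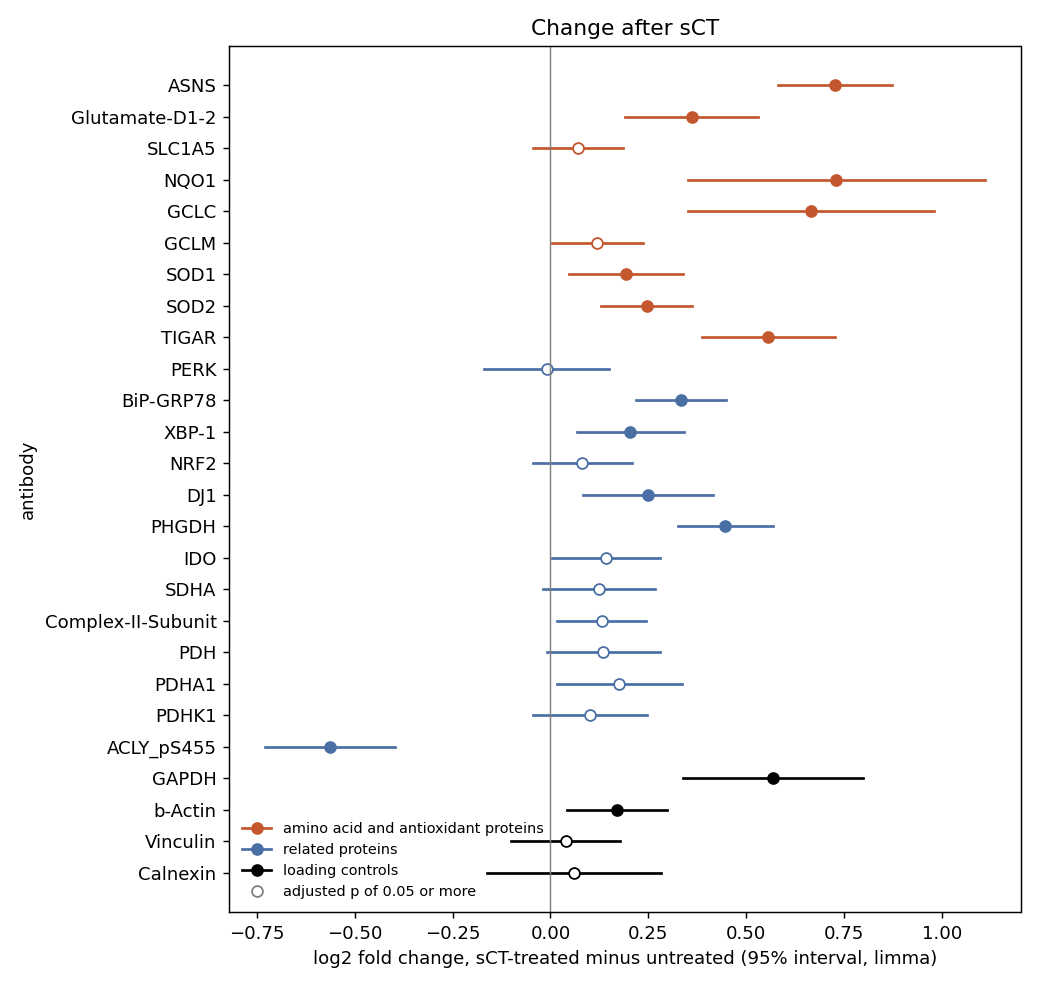
Log2 fold change (sCT-treated minus untreated) with its 95% interval from limma for the 9 proteins, 13 related antibodies and 4 loading controls, filled where the adjusted p was below 0.05. Most intervals lie to the right of 0, GAPDH among them at 0.57, and ACLY phosphorylated at S455 lies to the left at -0.56.

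Of 4 loading control antibodies, 2 rose, beside 21.4% of the panel called higher. GAPDH went from 0.828 and 0.712 to 1.11 and 1.17, a log2 fold change of 0.57 (adjusted p = 0.00578), and beta-actin (b-Actin) gave 0.17 (adjusted p = 0.0386), while Vinculin gave 0.04 (adjusted p = 0.557) and Calnexin 0.06 (adjusted p = 0.558), both with overlapping groups. The call of beta-actin was lost with any 1 sample left out (log2 fold change 0.14 to 0.20), and that of GAPDH without sCT replicate 2 (0.53). The summed level of the 4 was not used, since levels of different antibodies share no scale. When each sample was centred on these 4 controls, each first taken relative to its own mean, the panel's median log2 fold change moved from 0.02 to -0.14. Of the 9 proteins, ASNS (0.57, adjusted p = 0.000215), NQO1 (0.57, adjusted p = 0.00674), GCLC (0.51, adjusted p = 0.00313) and TIGAR (0.40, adjusted p = 0.00265) remained called under that centring. Glutamate-D1-2, SOD1 and SOD2 were no longer called, with log2 fold changes of 0.04 to 0.20, and SLC1A5 (-0.09) and GCLM (-0.04) turned to the other side of 0 without passing the threshold. Of the related proteins, PHGDH (0.29) was still called higher (adjusted p = 0.0153), while BiP-GRP78, XBP-1 and DJ1 were not (adjusted p = 0.102, 0.673 and 0.411), and NRF2 was at -0.08 (adjusted p = 0.516).

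**Figure D4:**
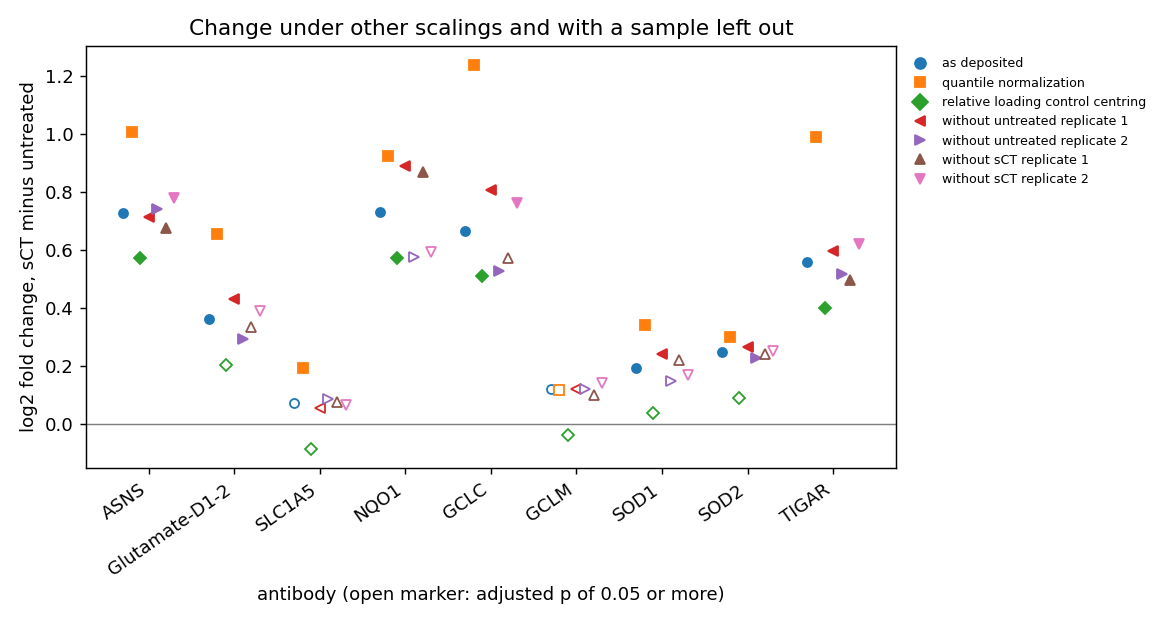
Log2 fold change of the 9 proteins as deposited, after quantile normalization, after centring on 4 loading controls and with each sample left out, filled where the adjusted p was below 0.05. ASNS and TIGAR stay filled in all of these, while SLC1A5 and GCLM fall below 0 under loading control centring.

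Quantile normalization moved most of the 9 upward, to 1.01 for ASNS, 0.92 for NQO1, 0.65 for Glutamate-D1-2 and 0.34 for SOD1, all called. It moved the loading controls too, GAPDH to 1.13 and Vinculin from 0.04 to 0.61 (adjusted p = 0.00535), so that Vinculin became called. Beta-actin (0.21) and Calnexin (0.12) were not called under it. The number of the 9 called higher, 7 as deposited, was 3 without sCT replicate 1 (ASNS, NQO1 and TIGAR) and 3 without sCT replicate 2 (ASNS, GCLC and TIGAR). An unequal-variance test on linear levels called 0 of the 9 and 1 of the 440 antibodies after Benjamini-Hochberg adjustment, with adjusted p-values of 0.109 to 0.177 for the 7 that limma called.

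The antibodies whose pattern over the 4 samples was nearest to that of ASNS, by Euclidean distance between log2 levels taken relative to each antibody's mean, were MERIT40 (distance 0.0972 log2 units), B7-H3 (0.136) and MCT4 (0.163). For NQO1 they were GAPDH (0.224), B7-H3 (0.294) and IR-b (0.299), at larger distances. With 4 samples in 2 groups, such nearness mainly reflects a like change between the groups, and these 6 values are a description only.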

How the data were processed

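Protein levels were measured by RPPA in 2 untreated and 2 sCT-treated LN229 samples, grouped by their labels. According to the study's methods, lysates were serially diluted, printed on nitrocellulose-coated slides, probed with antibodies and stained with DAB, and the spots were quantified in Array-Pro Analyzer. The authors deposited linear ratios, 1 relative level per antibody and sample; the steps from intensities to ratios are not given in the sources used here. Levels were positive and were log2-transformed without a pseudocount or filter. The comparison of the groups used limma (version 3.58.1, R 4.3.3) without covariates, with 2 residual and 2.59 prior degrees of freedom, two-sided, with Benjamini-Hochberg adjustment over 440 antibodies at 0.05. The steps were tested on simulated data, 20 sets per setting, with noise independent between samples and antibodies. Of 100 changed antibodies, a median of 71.5% was called at a log2 change of 0.3 and 93% at 0.7. With no change, at most 1 antibody was called. The data differ from these settings. Differences between replicates 1 and 2 correlated between the groups (r = 0.586), and 94 antibodies were called higher and 148 lower. The simulated shares may therefore not hold for these samples. The number of samples, 2 per group, limits the precision. Named antibodies were all 9 proteins, the 13 related antibodies whether called or not, the loading controls and the 3 nearest antibodies of ASNS and NQO1. The proteins and lists were chosen with earlier results of these data known. A protein that the rule would take and 1 related protein are not reported here. Alternatives were quantile normalization, median centring, loading control centring, linear levels, an unequal-variance test, a robust eBayes with an intensity trend, a filter on the lowest 10% of antibodies by mean level, each sample left out, and the replicate number as a block.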

Additional observations from a re-analysis of the deposited data

How the results depend on the processing

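Counts of calls depended on the test, on the scaling and on single samples, and signal over background is unknown. Each of the 9 proteins kept its direction in all 12 alternatives, except SLC1A5 (-0.0869) and GCLM (-0.0374) with loading control centring. Only the alternatives that rescale samples (quantile normalization and the centrings) could turn a direction. The others could not, since both treated samples lay above both untreated ones for all 9. With each sample left out, where a group's lone sample is taken to have the spread of the other, the log2 fold change was 0.68 to 0.78 for ASNS, 0.29 to 0.43 for Glutamate-D1-2, 0.0543 to 0.0864 for SLC1A5, 0.57 to 0.89 for NQO1, 0.53 to 0.81 for GCLC, 0.0984 to 0.14 for GCLM, 0.15 to 0.24 for SOD1, 0.23 to 0.26 for SOD2 and 0.49 to 0.62 for TIGAR. The number of the 9 called higher was 3 to 7 (3 without either sCT replicate), that of related antibodies 2 with any sample left out against 4, and that of all antibodies 38 to 76 against 94 (55 without untreated replicate 2, 38 without sCT replicate 1 and 43 without sCT replicate 2), with 110 to 138 lower against 148. With loading control centring 4 of the 9, 1 related and 29 of all antibodies were called higher, and Glutamate-D1-2 was at 0.20, SOD1 at 0.0363 and SOD2 at 0.0884. The related antibodies and controls that turned under it without passing the threshold were NRF2 (-0.0757), IDO (-0.0149), SDHA (-0.0343), the complex II subunit (-0.0267), PDH (-0.0221), PDHK1 (-0.0558), Vinculin (-0.12) and Calnexin (-0.0962). With each sample left out, Calnexin ranged from -0.0489 (without sCT replicate 1) to 0.17 and PERK from -0.0580 to 0.0381, above 0 without untreated replicate 1 and without sCT replicate 1. The unequal-variance test called 0 of the 9 higher, 0 related antibodies in either direction, and 0 higher and 1 lower of all. Its linear differences were 0.600 for ASNS, 0.235 for Glutamate-D1-2, 0.672 for NQO1, 0.449 for GCLC, 0.128 for SOD1, 0.173 for SOD2 and 0.384 for TIGAR. At an unadjusted p of 0.05 with a log2 fold change of 0.58, 3 of the 9 were higher, and 11 higher and 84 lower of all. Quantile normalization called SLC1A5 (0.19), and eBayes with trend and robust estimation called GCLM (0.12, adjusted p = 0.0402).

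With the replicate number as a block, 5 of the 9 were called. NQO1 (0.73, adjusted p = 0.0550) and SOD1 (0.19, adjusted p = 0.0698) were not. The differences between replicates 1 and 2 correlated between the groups with r = 0.586 across antibodies, but 2 pairs do not show that the numbers pair the samples, so the block stayed an alternative. The cause of the changes named here was not tested.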
